A study of Mus musculus with 4 samples.

Results

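Low-methylated clusters in CpG-poor sequence were described across 4 reduced representation bisulfite sequencing (RRBS) libraries of mouse embryonic fibroblasts (MEFs). A cluster was a run of at least 3 CpGs with at least 10 reads in every library and neighbours at most 100 bp apart. Its CpG density was counted over 100 bp to the left and right of each CpG, taking every CpG that any library lists and the CpG itself, and averaged over the cluster. CpGs that no library lists were not counted, so the density can be below that of the genome, whose sequence was not used. Clusters were kept when they lay on autosomes, had a density of at most 4 and had a pooled methylation level under 50% in the 0-division and 1-division libraries. This left 4126 clusters, 4.14% of all 99566 clusters and 16.9% of the 24438 autosomal CpG-poor ones. Of these, 1366 were under 10% and 2760 lay from 10% to 50%, and both groups are given apart. The remaining 20312 CpG-poor clusters were at or over 50%. The clusters were chosen by the pooled level of the 0-division and 1-division libraries, so their levels in these libraries are a description and carry no test.

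All 4 libraries came from secondary inducible MEFs of a 129/SvJ x C57/B6 hybrid, cells that carry reprogramming factors switched on by doxycycline. Uninduced MEFs gave the control library. Cells held in doxycycline for 96 hours were divided into cohorts by their number of divisions, averaging 0 or 1 in the first 2 cohorts. The last cohort is titled >3 and described as averaging 3 or more. Serum was 10% in the growth medium, 15% with doxycycline and 0.5% in a starvation medium per the labels, which do not say which cohort was starved, so division number, serum and drug cannot be told apart in a comparison with control. Each group had 1 library, and no difference given here has a replicate check.

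Most CpGs in CpG-poor mammalian DNA are methylated, and DNMT1, the maintenance methyltransferase, copies the mark to the new strand when DNA is replicated. CpG islands, where CpGs are dense, are mostly free of methylation. Outside islands, low or middle levels in CpG-poor sequence are known from mouse embryonic stem cells and neural progenitors, where such regions often overlap enhancers and other sites bound by transcription factors. A level in bulk DNA is an average over molecules, so a cluster at a middle level may hold methylated and unmethylated alleles, cells or CpGs.

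The 4 libraries held 84606824 to 94775128 reads summed over CpGs. The >3-division library differed from the others in where its reads fell: methylated reads made up 26.0% of it and 44.4% of control. In the 1366 clusters under 10% it held a median of 299.5 reads per cluster, against 213 in control. In the 2760 clusters from 10% to 50% the medians were 213 and 208 reads, and in the CpG-poor clusters at or over 50% they were 129 and 207 reads. The part of this shift in read number in the results was not tested. Values at equal depth, from reads drawn at random within each CpG, are given beside the main result. Such draws even out read numbers but cannot undo a shift in which molecules were read. Wilson intervals below are at the 95% level and cover counting error only, because no molecular identifiers are given and neighbouring CpGs can lie on the same read.

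The clusters were short. The 4126 clusters held 13646 CpGs, and 3013 clusters (73.0%) had exactly 3 CpGs. The median span was 50 bp under 10% and 73 bp from 10% to 50%, against 70 bp in CpG-poor clusters at or over 50%. The largest cluster under 10% had 8 CpGs and the largest from 10% to 50% had 7. Both groups occurred on all 19 autosomes. Clusters under 10% made up between 3.99% (chromosome 6) and 8.48% (chromosome 19) of a chromosome's CpG-poor clusters, and clusters from 10% to 50% between 8.18% (chromosome 3) and 14.9% (chromosome 19). Of 2404 windows of 1 Mb with a CpG-poor cluster, 841 held a cluster under 10% and 1218 held one from 10% to 50%.

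In the control library, which did not choose them, the clusters kept to their groups. Of the 1366 clusters under 10%, 1291 (94.5%) were also under 10% in control, and none was above 20%. Of the 2760 clusters from 10% to 50%, 2393 (86.7%) were within that range in control, 122 were below it and 245 above it, up to 73.2%. The clusters under 10% averaged 3.49% in control, 3.73% at 0 divisions, 3.43% at 1 division and 2.94% at >3 divisions. The clusters from 10% to 50% averaged 31.9%, 31.7%, 32.0% and 25.2% in the same order. Control and the first cohorts thus had nearly equal means, and the >3-division library stood lower in both groups. The middle 50% of the clusters from 10% to 50% spanned 14.0% to 35.0% in the >3-division library and 21.2% to 42.4% in control, so the groups of values overlapped widely. Across these 2760 clusters the level in control correlated with r = 0.870 with the 1-division, r = 0.871 with the 0-division and r = 0.695 with the >3-division library. The points are clusters that share a library, its depth and their base composition, and are not replicates.

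**Figure D1:**
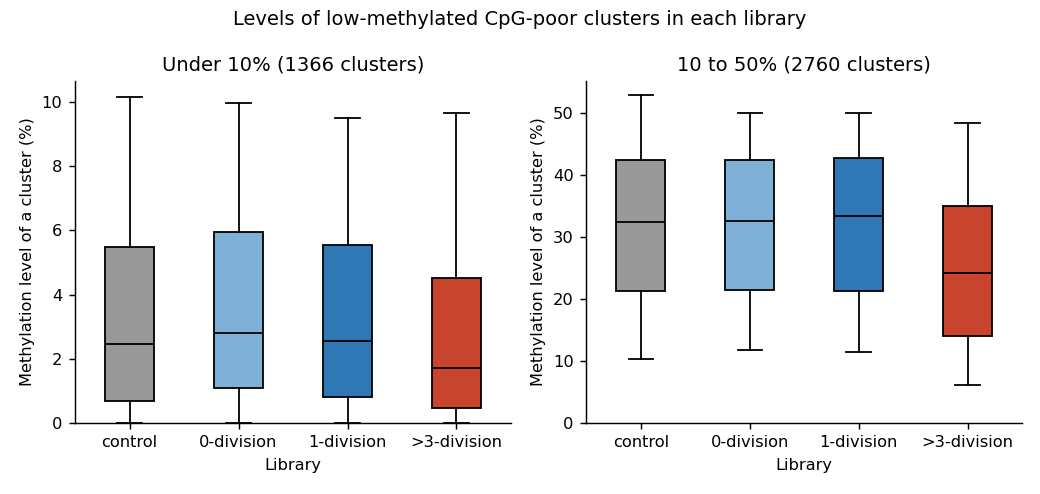
Methylation level of each cluster (percent) by library, for the 1366 clusters under 10% (left) and the 2760 clusters from 10% to 50% (right). Boxes span the middle 50% of clusters, the line is the median and whiskers reach the 5th and 95th percentiles; medians from 10% to 50% were 32.4%, 32.5%, 33.3% and 24.2% from control to >3-division.

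The thresholds cut through a continuous range. The highest clusters under 10%, among those with at least 200 reads in the libraries that chose them, were at chromosome 5 from 118287887 to 118287973, with a pooled level of 9.97%, and at chromosome 2 from 168667786 to 168667809, also at 9.97%. The next clusters above lay at chromosome 11 from 63728185 to 63728204, at 10.0%, and from 96825035 to 96825047, at 10.03%. At the upper threshold the last clusters inside were at chromosome 14 from 121497371 to 121497480 (49.9%) and chromosome 16 from 20607261 to 20607294 (49.9%). The first ones outside were at chromosome 2 from 22161713 to 22161783 and chromosome 5 from 113840012 to 113840090, both at 50%.

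All CpGs of a cluster lay within the range from 10% to 50% in a minority of cases. In the clusters from 10% to 50% the standard deviation between CpGs of a cluster was 18.5 points in the >3-division library and 17.1 points in control, where counting error alone would give 6.35 and 6.55 points at these depths. All CpGs lay from 10% to 50% in 554 clusters (20.1%) in the >3-division library and in 835 clusters (30.3%) in control. A cluster whose own level lay outside that range in a library cannot count here, even if its CpGs were alike. In the >3-division library 384 clusters were under 10% and 122 at or over 50%, and in control 122 and 245. These shares thus also depend on the cluster levels. The CpGs of a cluster spread over at least 40 points in 795 clusters (28.8%) in the >3-division library and in 654 (23.7%) in control. A cluster that joins a CpG at or over 80% to one under 20% was found 113 times in the >3-division library and 73 times in control. In most clusters at least 1 CpG thus lay outside the range, while few joined CpGs at opposite extremes. In the clusters under 10% the low pooled level itself limits the spread. Every CpG was under 10% in 1049 clusters (76.8%) in the >3-division library and in 996 (72.9%) in control. The standard deviation between CpGs was 4.46 and 4.67 points, where counting error alone would give 2.26 and 2.69 points.

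The surroundings separated the clusters into those near CpG-dense sequence and those away from it, judged by listed CpGs. Of the clusters under 10%, 670 (49.0%) had a CpG of density 12 or more within 2000 bp of their centre, as had 502 (18.2%) of the clusters from 10% to 50% and 1029 (5.07%) of the CpG-poor clusters at or over 50%. Distances ran over a wide range, with medians of 2368 bp, 24807.5 bp and 41149.5 bp in these 3 groups. Near CpG-dense sequence the clusters under 10% lay in broad unmethylated stretches. CpGs 200 to 500 bp from their centres averaged 2.38% in the >3-division library and 2.94% in control, and CpGs 500 to 1000 bp away averaged 4.40% and 5.21%. The clusters from 10% to 50% near CpG-dense sequence, in contrast, had higher levels than their surroundings. They were at 21.5% in the >3-division library and 26.8% in control, beside 8.45% and 9.97% at CpGs 500 to 1000 bp away. They were chosen for a level of at least 10%, so part of this difference is set by the rule. CpG-poor clusters at or over 50% near CpG-dense sequence also stood above such CpGs, at 75.3% and 80.9% beside 48.45% and 52.23%.

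Away from CpG-dense sequence mean levels were lower in the clusters than in their flanks, which by this choice held no dense CpG. The clusters were chosen for a low level, so part of this difference is set by the rule. The 696 clusters under 10% that lay farther than 2000 bp from a dense CpG averaged 3.61% in the >3-division library and 4.27% in control. CpGs 100 to 200 bp from their centres averaged 7.01% and 9.51% in the same order, and CpGs 1000 to 2000 bp away 43.7% and 49.9%. The 2258 such clusters from 10% to 50% averaged 26.0% and 33.0%, with 31.9% and 40.3% at 100 to 200 bp and 55.2% and 63.0% at 1000 to 2000 bp. CpG-poor clusters at or over 50% lay in sequence of 67.0% and 74.3% at 1000 to 2000 bp. For 827 of the 2258 distant clusters from 10% to 50% a CpG 500 to 2000 bp away was covered, and for 564 of them (68.2%) these flanks averaged at or over 50% in control. The same held for 125 of 293 distant clusters under 10% (42.7%), where the flanks of another 71 (24.2%) were under 10% as well, and for 6325 of 7096 distant CpG-poor clusters at or over 50% (89.1%). No test was made of these differences between groups of clusters.

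**Figure D2:**
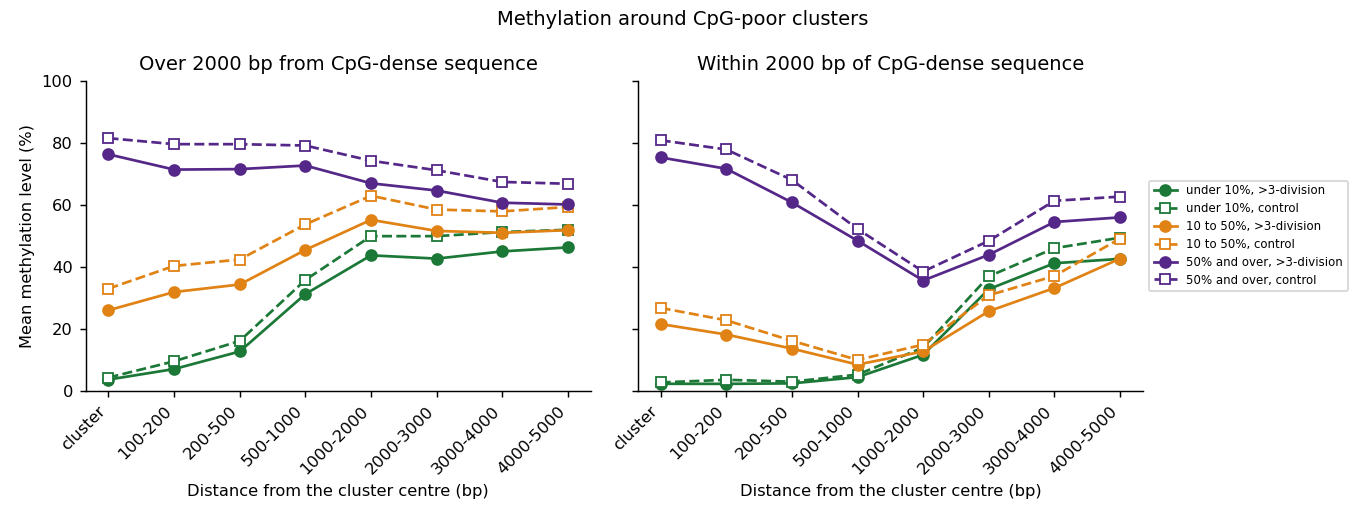
Mean methylation level (percent) of a cluster and of CpGs around it against the distance from the cluster centre in bp, for CpG-poor clusters under 10%, from 10% to 50% and at or over 50%; filled points and solid lines are the >3-division library, open squares and dashed lines control. Left are clusters farther than 2000 bp from a CpG of density 12 or more, right those within 2000 bp: on the left, levels climb with distance from both low groups, reaching 43.7% and 49.9% at 1000 to 2000 bp for clusters under 10%.

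The comparison of the >3-division library with control asks what happened to these clusters in cells that had divided most, and it used the libraries that did not choose the clusters. The clusters from 10% to 50% were lower in the >3-division library, by a mean of 6.67 points (25.2% against 31.9%), and 74.3% of them were below control, as were 72.5% of all clusters and 71.5% of CpG-poor clusters at or over 50%. The clusters under 10% differed by -0.55 points on average (2.94% against 3.49%). CpG-poor clusters at or over 50% differed by -5.22 points (76.3% against 81.5%). Relative to control, the mean level was 0.791 times as high from 10% to 50%, 0.843 times under 10% and 0.936 times at or over 50%. At equal depth, with each CpG thinned to the lowest of its 4 coverages, the mean difference from 10% to 50% was -6.82 points. Thinning keeps the level of each CpG on average. This mean could thus change only through the weight of each CpG and random draws. Before thinning, the mean from 10% to 50% was below control on all 19 autosomes, from -8.09 points on chromosome 17 to -4.98 points on chromosome 19. The autosomes share the same libraries and are not replicates. Over all clusters the mean difference was -3.58 points, and other clusters were not compared by chromosome.

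Single clusters were called at a Benjamini-Hochberg adjusted p under 0.05 over all 99566 clusters (two-sided Fisher's exact test on reads) and a difference of at least 10 points, which compares 2 libraries and not the conditions. From 10% to 50%, 744 of 2760 clusters (27.0%) were called lower in the >3-division library and 61 (2.21%) higher. Over all clusters 11.0% were called lower and 0.577% higher, and among CpG-poor clusters at or over 50% 16.3% and 0.768%. All clusters include those under 10% in control, which cannot fall by 10 points. At equal depth 21.3% of clusters from 10% to 50% were called lower and 0.942% higher. The shares at equal depth were 7.85% and 0.281% over all clusters and 10.1% and 0.271% at or over 50%. Thinning evens the libraries at each CpG and not the groups of clusters. Before thinning the >3-division library held a median of 213 reads per cluster from 10% to 50% and 129 at or over 50%. The power to call thus differed between the groups, and their shares are not matched for depth. The called falls, which this difference itself picks out, averaged 19.1% in the >3-division library and 38.3% in control, and 275 of them were at least 20 points. After the fall 152 clusters were under 10% and 45 under 5%. Over the 2760 clusters, 1703 (61.7%) were lower in the >3-division library than in each of the other libraries. Among the 744 called lower, which are below control by the call itself, 734 were so, and of the 61 called higher 58 were higher than in each of the others. These counts also use the libraries that chose the clusters, and the matching shares of all clusters were not computed. Against control alone, 74.3% of the clusters from 10% to 50% and 72.5% of all clusters were lower. Under 10%, 6 clusters were called lower and 5 higher, and a cluster under 10% in control cannot fall by 10 points. With reads scaled down by the overdispersion between control and 1-division (1.68), 460 clusters from 10% to 50% (16.7%) were called lower and 15 higher, beside 6.74% and 0.218% of all clusters.

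**Figure D3:**
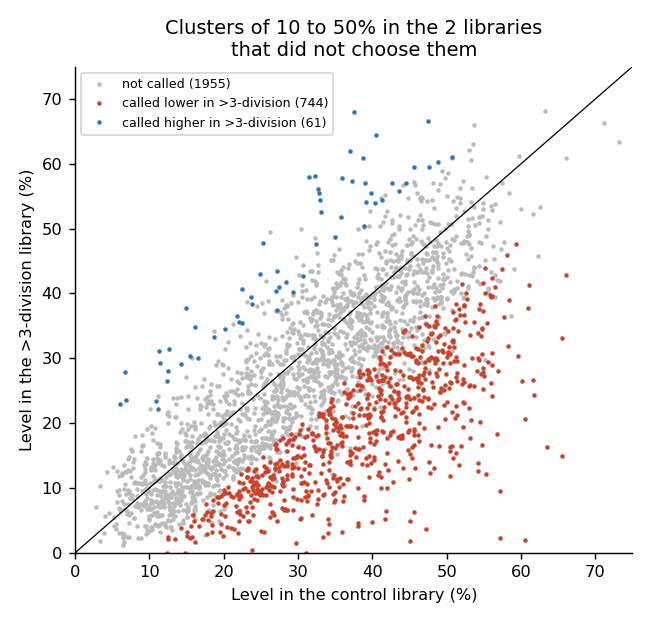
Methylation level in the >3-division library against the level in control (percent), 1 point for each of the 2760 clusters from 10% to 50%; the line marks equal levels. The 744 clusters called lower and the 61 called higher are coloured, and the points spread mostly below the line.

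Clusters of other CpG densities with the same pooled level were set beside the CpG-poor ones. In clusters pooled at 20% to 30%, the >3-division library differed from control by -5.75 points in the 569 CpG-poor clusters, by -4.26 points in 1192 clusters of intermediate density (above 4 and under 12) and by -3.01 points in 283 CpG-dense clusters. At 30% to 40% the differences were -8.22, -6.54 and -5.46 points. At 40% to 50% they were -8.69, -8.38 and -9.40 points, so the order of the densities was not the same at every level. The shares called lower were 26.5%, 21.7% and 16.6% at 20% to 30% and 32.8%, 34.5% and 40.8% at 40% to 50%, in order of rising density. The power to call a cluster differed between the densities, since CpG-dense clusters at 20% to 30% held a median of 1193 reads in the >3-division library against 227 in the CpG-poor ones. No test of the difference between densities was possible with 1 library per group.

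**Figure D4:**
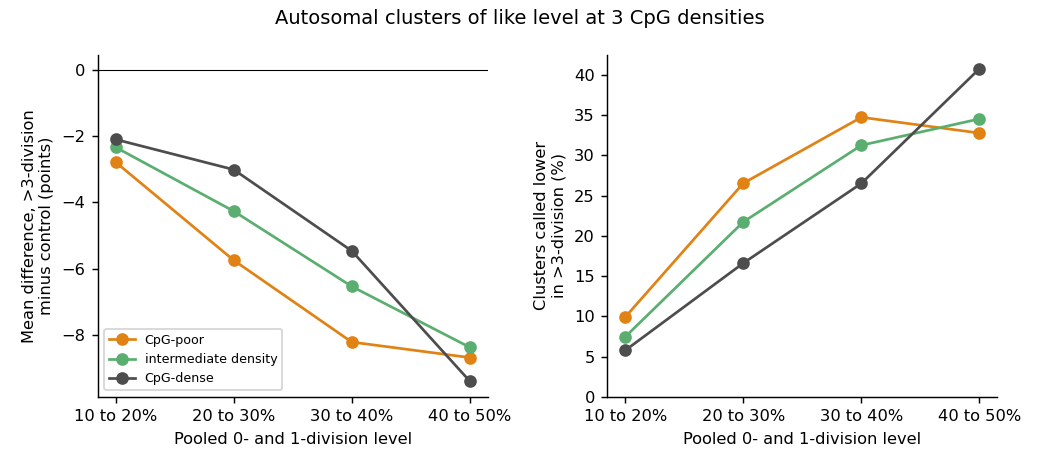
Mean difference of the >3-division library from control in percentage points (left) and share of clusters called lower in percent (right) against the pooled 0-division and 1-division level, for autosomal CpG-poor clusters and clusters of intermediate and high CpG density. CpG-poor clusters ran from -2.78 points at 10% to 20% to -8.69 points at 40% to 50%.

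The fall was present in subgroups of the clusters from 10% to 50%. Within 2000 bp of CpG-dense sequence the 502 clusters averaged 21.5% in the >3-division library and 26.8% in control, and 105 (20.9%) were called lower. Farther away the 2258 clusters averaged 26.0% and 33.0%, and 639 (28.3%) were called lower. In 917 clusters every CpG lay from 10% to 50% in the libraries that chose them; these averaged 20.7% in the >3-division library and 28.3% in control, and 288 (31.4%) were called lower. In 634 clusters the CpGs were at least 40 points apart in those libraries, with 32.7% and 39.0%, and 165 (26.0%) were called lower. Neighbouring clusters were also compared. Of the clusters called lower, 180 had another cluster within 1000 bp and 119 had a nearest one that was at or over 10% in the mean of the 0-division and 1-division levels, and these neighbours averaged 38.0% in the >3-division library and 48.0% in control, with 43 (36.1%) called lower themselves. Beside clusters that were not called, 296 such neighbours averaged 37.3% and 42.7%, and 56 (18.9%) were called lower. Neighbours share the library and may share fragments of like depth, and this difference was not tested.

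The largest falls, chosen for the size of their difference, were from clusters near or above 50% in control. At chromosome 14 from 19102833 to 19102859, 3 CpGs within 27 bp were at 60.6% in control (40 of 66 reads), 27.7% at 0 divisions, 61.0% at 1 division and 1.96% at >3 divisions (1 of 51 reads, Wilson interval 0.347% to 10.3%), a difference from control of -58.6 points (adjusted p = 1.37e-10, Fisher's exact test). The cluster lay 292 bp from a CpG of density 12 or more, and its nearest other cluster, of 28 CpGs, was at 0.546% in the >3-division library and 9.51% in control. Only the >3-division library was near 0, and the 0-division library stood apart from the other 2.

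The second and the sixth largest falls were a pair of clusters on chromosome 17 that lie 142.5 bp apart from centre to centre. The cluster from 12934455 to 12934472 was at 57.2% in control (135 of 236 reads), 46.2% at 0 divisions, 33.6% at 1 division and 2.27% at >3 divisions (5 of 220 reads, 0.975% to 5.21%), a difference from control of -54.9 points (adjusted p = 2.21e-40, Fisher's exact test). The cluster from 12934598 to 12934614 was at 47.2%, 36.7%, 41.5% and 3.74% in these libraries, with 348 reads at >3 divisions (difference -43.5 points, adjusted p = 2.57e-40, Fisher's exact test). The level was shared by all CpGs: the 3 CpGs of the second cluster were at 45.8%, 48.1% and 47.7% in control and at 3.45%, 3.45% and 4.31% in the >3-division library. Both clusters were lowest by far at >3 divisions. The first was also lower at 1 division than in control. The 1-division library helped choose the clusters, so this is a description and carries no test. Both lay within 708 bp of a CpG of density 12 or more.

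At chromosome 9 from 110587083 to 110587192 the level was 45.1% in control (137 of 304 reads), 35.2% at 0 divisions, 28.3% at 1 division and 1.81% at >3 divisions (9 of 496 reads, 0.958% to 3.41%), the smallest adjusted p of the 8 largest falls (2.75e-53, Fisher's exact test). Its 3 CpGs were at 0.549%, 7.55% and 1.53% in the >3-division library and at 36.7%, 44.8% and 53.7% in control. At chromosome 7 from 37313699 to 37313719 it was 57.2%, 45.1%, 47.4% and 9.57%, far from CpG-dense sequence at 167018 bp. At these clusters each doxycycline library was below control, and the >3-division library was far below the rest. The clusters had to pool under 50% in the 0-division and 1-division libraries and were ranked by their fall from control. Part of this order is thus set by the choice. Over all clusters from 10% to 50% the 0-division and 1-division libraries differed from control by means of -0.13 and 0.13 points.

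The other falls among the 8 largest were less deep or rest on fewer reads. The cluster at chromosome 5 from 125561201 to 125561224 was at 55.3% in control, 49.3% at 0 divisions, 44.1% at 1 division and 12.2% at >3 divisions. At chromosome 4 from 132080204 to 132080267 the levels were 65.5%, 45.8%, 48.1% and 14.9% on 81 to 96 reads. At chromosome 1 from 40754144 to 40754219 they were 63.5%, 27.7%, 45.2% and 16.4% on 61 to 83 reads. This last cluster mixed its CpGs, at 85.7%, 42.9% and 28.6% in control, and the -47.1 points became -35.8 points when each CpG counted the same and -32.6 points at equal depth. All 8 falls passed the test at equal depth and with reads divided by the overdispersion.

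Rises from 10% to 50% were fewer and smaller. The largest was at chromosome 4 from 149377574 to 149377639, with 37.5% in control (24 of 64 reads), 32.0% at 0 divisions, 48.2% at 1 division and 68.0% at >3 divisions (51 of 75 reads, 56.8% to 77.5%; adjusted p = 0.00346, Fisher's exact test). At chromosome 13 from 24228006 to 24228092 the levels were 31.5%, 40.5%, 37.4% and 57.9%, and most of the rise came from the CpG at 24228092, at 58.2% of 189 reads in the >3-division library and 27.7% of 112 reads in control. The clusters on chromosome 9 from 65446848 to 65446904 and from 117026681 to 117026750 were higher than control by 25.8 and 25.1 points. The call at 149377574 was lost with reads divided by the overdispersion (adjusted p = 0.0678, Fisher's exact test), that at 65446848 at equal depth (adjusted p = 0.0795, Fisher's exact test), and that at 117026681 under both (0.161 and 0.209).

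Under 10%, 4 of the clusters called higher had at least 50 reads in both libraries. At chromosome 8 from 49567632 to 49567713 the level was 3.09% in control (10 of 324 reads), 9.43% at 0 divisions, 3.61% at 1 division and 19.6% at >3 divisions (60 of 306 reads, 15.5% to 24.4%; adjusted p = 8.04e-10, Fisher's exact test). Its first 3 CpGs were at 25.4%, 37.5% and 27.4% in the >3-division library and at 7.32%, 3.66% and 1.22% in control, while the last CpG was at 2.56% in the >3-division library and had 0 of 78 reads methylated in control, which allows a level of up to 3.85%. The higher level was seen at the first 3 CpGs and not at the last. At chromosome 15 from 27927390 to 27927519 the levels were 2.56%, 6.78%, 6.43% and 18.6%, and the inner CpGs carried the rise, with 39.5% and 40.4% in the >3-division library against 12.9% and 3.77% in control, beside outer CpGs of 4.82% and 7.21% against 1.07% and 0.952%. At chromosome 14 from 55062689 to 55062716 they were 5.23%, 5.09%, 5.57% and 16.1%, and at chromosome 13 from 55587993 to 55588060 4.41%, 9.71%, 6.92% and 15.9%. The last call was lost at equal depth (adjusted p = 0.0925, Fisher's exact test) and with reads divided by the overdispersion (adjusted p = 0.155).

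**Figure D5:**
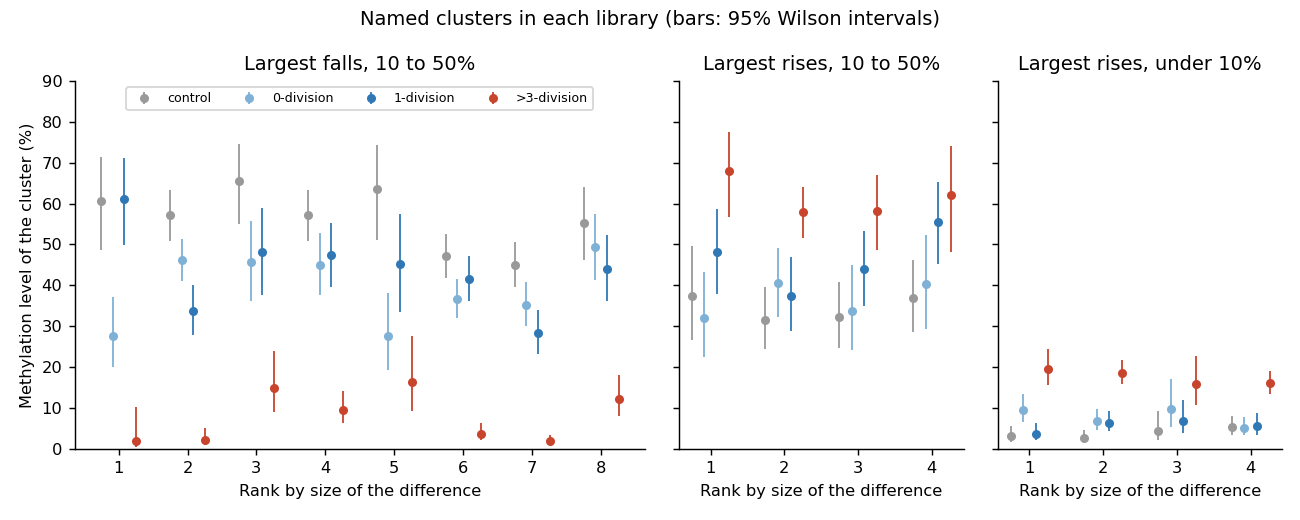
Methylation level (percent) of the clusters with the largest called differences between >3-division and control, by rank of the difference, in each library from control to >3-division; bars are 95% Wilson intervals. In the 8 falls the >3-division library lies between 1.81% and 16.4%, below each other library.

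The clusters with the most CpGs gave values on more reads. Under 10%, the cluster of 8 CpGs at chromosome 2 from 31195382 to 31195625 was at 6.95% in control, 7.41% at 0 divisions, 7.28% at 1 division and 5.80% at >3 divisions (76 of 1311 reads), an interval of 4.66% to 7.20% in the last that overlapped that of control (5.39% to 8.92%). The clusters of 6 CpGs at chromosome 2 from 127347961 to 127348140 and chromosome 11 from 32975423 to 32975594 were at 4.39% and 4.19% in the >3-division library and at 4.62% and 8.81% in control. From 10% to 50%, the cluster of 7 CpGs at chromosome 10 from 61486639 to 61486851 was at 8.87% in the >3-division library (66 of 744 reads) and 15.9% in control (99 of 623 reads). The cluster of 7 CpGs at chromosome 4 from 147449132 to 147449286 was at 12.6% and 20%, and that of 6 CpGs at chromosome 1 from 41025062 to 41025207 at 30.7% and 44.6%. The chromosome 1 cluster alone among these 6 was called lower (adjusted p = 3.92e-08, Fisher's exact test), since the other differences were under 10 points.

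Some clusters from 10% to 50% were at nearly the same level in every library when reads were summed over their CpGs. Among those with at least 200 reads in each, the smallest range was at chromosome 2 from 153258071 to 153258217, with 36.1% in control (139 of 385 reads), 36.1% at 0 divisions, 35.8% at 1 division and 36.0% at >3 divisions (229 of 636 reads). The cluster at chromosome 5 from 148113543 to 148113570 lay between 16.8% and 18.2%, and that at chromosome 12 from 84174105 to 84174228 between 20.1% and 21.5%. These 3 were chosen for their small range, so their likeness is a description. Single CpGs could move more. In the chromosome 2 cluster the CpG at 153258217 was at 20.4%, 40.9%, 22.7% and 12.5% from control to >3-division. The CpG at 153258151 stayed between 28.2% and 32.8%.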

How the data were processed

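RRBS fragments were cut with MspI, selected at 40 to 220 bp and treated with bisulfite, per the labels' protocols. For each library the authors deposited a table without header, with a position and 2 whole-number read counts per CpG. The first is the methylated count, since in sequence of density 12 or more 62.3% of 628254 control CpGs had a first number of 0. The build is mm9, per the submitters' processing notes, and positions are printed as deposited. Their first number (0 or 1), the aligner and the caller were not given in the sources used here. Genes, promoters and sequences at these positions were not analysed here.

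Density, clusters, Wilson intervals, Fisher's exact tests and Benjamini-Hochberg adjustment were computed with Python 3.11.15, numpy 2.4.6 and scipy 1.17.1. The test was tested on simulated data. Named clusters had at least 50 reads in both libraries: the 8 largest falls and 4 largest rises from 10% to 50%, the 4 largest rises under 10%, the 3 with most CpGs per group (ties by control reads), those beside each threshold and the 3 steadiest. Alternatives changed the read minimum, gap, density, choosing library, weights, depth, error and smallest difference. Members, groups and rules were chosen with earlier results of these data known. Depth was 24 to 35 reads per listed CpG (median per library).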

Additional observations from a re-analysis of the deposited data

Results flagged for a closer look

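The mean difference from control had opposite signs in some pairs of cohorts. In the clusters under 10% it was 0.24 points in the 0-division, -0.061 points in the 1-division and -0.55 points in the >3-division library. In the clusters from 10% to 50% it was -0.13 points in the 0-division, 0.13 points in the 1-division and -6.67 points in the >3-division library. With 1 library per cohort these differences were not tested, and the 0-division and 1-division libraries chose the clusters.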

How the results depend on the processing

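The mean difference between >3-division and control kept its sign in both groups under every alternative run. From 10% to 50% it was -6.86 points with a minimum of 5 reads, -5.90 with a gap of 50 bp, -7.34 with a gap of 200 bp and -6.92 at a density of at most 3; under 10% it was -0.40, -0.72 and -0.66 points with the gaps of 50 and 200 bp and the density of 3. A gap of 50 bp left 1610 clusters from 10% to 50%, with 343 called lower and 35 higher. A gap of 200 bp gave 1165 called lower. A density of at most 3 left 1347 clusters from 10% to 50%, with 375 lower and 33 higher, and 504 under 10%, with 3 higher. At equal depth 26 clusters from 10% to 50% were called higher. With reads divided by the overdispersion 460 were lower and 15 higher, and 3 were higher under 10%. A smallest difference of 20 points gave 275 lower, 14 higher and 1 higher under 10%, and 5 points gave 15 higher under 10%. Among the 16 named falls and rises, division of reads by the overdispersion was an alternative chosen after seeing the data. No paired analysis was possible because each group had 1 library. Counts under other settings stayed within 1.5 times the reported ones. At these depths small differences of a cluster of 3 CpGs were not detectable.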

Other observations

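Some clusters had the same number of CpGs at identical spacing as others nearby; their sequences were not compared. On chromosome 8, 18 clusters under 10% between 126062967 and 126147829 had 4 CpGs with identical spacing over 22 bp, in steps of 1673 bp or more, and 4 clusters of the group from 10% to 50%, from 126064338 to 126115283, had 4 CpGs with identical spacing over 68 bp. The 18 averaged 0.995% in the >3-division library and 2.40% in control, lower in 17 of 18, and none was called. The 4 averaged 5.16% in the >3-division library and 11.8% in control, lower in 4 of 4, and 1 was called lower. Clusters held 172 to 303 reads (the 18) or 401 to 423 reads (the 4) in control. On chromosome 13, 3 clusters between 62117016 and 62568460, 2 of them under 10% and 1 from 10% to 50%, had 3 CpGs with identical spacing over 7 bp. They averaged 4.20% in the >3-division library and 12.1% in control, lower in 3 of 3, with 0 called. These clusters, and the window below, were singled out after their values were seen. Below control in the >3-division library were 57.25% of all clusters under 10% and 74.3% of all clusters from 10% to 50%. Whether clusters of identical spacing count as independent was not tested.

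The 1 Mb window with the most clusters from 10% to 50% was on chromosome 5, with 13 between 120013668 and 120952640. They averaged 16.4% in the >3-division library and 26.8% in control, and 7 were called lower and 0 higher (Fisher's exact test, adjusted p under 0.05 and at least 10 points), beside 27.0% of all clusters from 10% to 50% and 11.0% of all clusters called lower.

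The X chromosome lay outside the rule. It held 8 CpG-poor clusters under 10% and 52 from 10% to 50%, 0.903% and 5.87% of its CpG-poor clusters. The 52 averaged 27.5% in control, 29.4% at 0 divisions, 28.9% at 1 division and 18.2% at >3 divisions. Of them 14 (26.9%) were called lower and 0 higher, beside 27.0% of the autosomal clusters from 10% to 50% and 11.0% of all clusters called lower. The 826 CpG-poor clusters at or over 50% on X averaged 77.0% in the >3-division library and 80.9% in control. Of these, 86 (10.4%) were called lower, beside 16.3% of the autosomal CpG-poor clusters at or over 50%.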
